A study of Mus musculus with 12 samples.

Results

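Trp53, the gene for the transcription factor p53, and 9 of its standard target genes (Cdkn1a, Mdm2, Bax, Ccng1, Trp53inp1, Fas, Sesn2, Phlda3 and Zmat3) were followed through RNA sequencing of the developing mouse palate. These 10 genes are a selection from the 24391 genes counted. Trp53 was selected because its RNA was about 4-fold higher in mutants at embryonic day 14.5 (E14.5), and the targets were taken from general knowledge of the pathway to ask whether they follow the transcript. The E14.5 values of Trp53 are therefore a description and carry no test. Anterior palate tissue came from 2 stages, E14.5 and E16.5, with 3 control and 3 mutant samples at each, 12 in all. The controls are labelled wild type, C57BL/6. The mutants are labelled Shox2Cre;R26RFgf8: an Fgf8 transgene at the Rosa26 locus is turned on by Cre recombinase under control of Shox2, so it is made in cells, and descendants of cells, that expressed Shox2, and the secreted FGF8 protein can reach their neighbours. Whether each sample pools embryos is not stated in the labels, and p-values measure only the spread between these samples.

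p53 is held at a low protein level by Mdm2, which tags it for destruction, and stress signals such as DNA damage release it from this control. Released p53 binds DNA and raises genes that stop the cell cycle, start cell death, repair DNA or restrain growth, Mdm2 among them, which closes a feedback loop. Control acts mostly on the protein, and RNA sequencing measures only the transcripts. In embryos, p53 activity is known for its role in neural crest and craniofacial defects.

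p53 binds a 10-base consensus unit, called a decamer here, and a full response element is a pair of decamers with up to 13 bases between them. RefSeq promoter windows (build GRCm38.p6, 250 bases before to 50 after a gene's start; the deposited counts were made on mm9) were found for 8 of the 10 genes, not for Trp53inp1 and Zmat3. The window of the upstream start of Cdkn1a, at chr17:29090729-29091028 on the + strand, is shown because it held a pair, with 12 bases between its members. Pairs occurred in 24 of all 32851 mouse windows (0.0731%). Only exact matches to the consensus were counted, and capitals mark these decamers, written 5′ to 3′. The 10 bases directly after GAACATGTCT, tgacatgttc, miss the consensus only at their first base. They were therefore not marked or counted, and the pair is that of the exact matches.

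Cdkn1a: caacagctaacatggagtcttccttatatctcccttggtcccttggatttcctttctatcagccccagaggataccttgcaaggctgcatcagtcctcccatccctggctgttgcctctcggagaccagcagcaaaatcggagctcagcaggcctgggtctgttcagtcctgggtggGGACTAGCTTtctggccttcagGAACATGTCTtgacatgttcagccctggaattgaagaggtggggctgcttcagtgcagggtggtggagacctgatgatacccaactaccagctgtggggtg

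A single decamer lay in the windows of Trp53, Mdm2, Bax and Ccng1, and 8.36% of all windows hold at least 1. Since the consensus reads the same on either strand, a match counts for both strands. They are shown with 10 bases on each side to let their differences be read, with capitals again on the decamer. The windows of Fas, Sesn2 and Phlda3, and that of the downstream start of Cdkn1a, held no match. A match is a description of the letters and not a site of binding.

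Trp53 (chr11:69580274-69580303, +): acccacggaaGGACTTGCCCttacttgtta
Mdm2 (chr10:117710925-117710954, -): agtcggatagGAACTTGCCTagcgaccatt
Bax (chr7:45467080-45467109, -): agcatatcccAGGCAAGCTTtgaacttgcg
Ccng1 (chr11:40755452-40755481, -): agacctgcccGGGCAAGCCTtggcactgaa

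The Trp53 transcript was higher in mutants at both stages. Levels are CPM, counts scaled to a common library total and corrected for library composition by TMM factors. At E14.5 it stood at 34.3, 40.7 and 32.3 CPM in control replicates 1 to 3 and at 142, 150.3 and 151 CPM in the mutants. At E16.5 it stood at 94.2, 93.9 and 98.9 CPM in the controls and at 188, 378.5 and 359 CPM in the mutants. The 4 groups do not overlap and run from E14.5 controls (35.8 ± 4.398 CPM, SD, n = 3) through E16.5 controls (95.7 ± 2.80) and E14.5 mutants (148 ± 5.17) to E16.5 mutants (309 ± 105). Mutant replicate 1 at E16.5 lies well below the other 2 mutants of that stage, and the remaining groups are tight.

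The mean ratio of mutant to control was 4.13 at E14.5, the contrast that selected the gene. At E16.5, which the selection did not use, Trp53 rose 3.27-fold in mutants (log2 fold change 1.71, SE 0.22, 95% interval 1.203 to 2.213; edgeR quasi-likelihood test with Benjamini-Hochberg adjustment, adjusted p = 0.000731, n = 3 per group). The call held in 16 of 16 alternative settings, with log2 fold changes from 1.54 to 1.99. Without mutant replicate 1 the value was 1.96. The authors' deposited table lists log2 fold changes of 1.89 at E14.5 and 1.61 at E16.5 for Trp53. In controls, the E16.5 mean of Trp53 was 2.67 times that at E14.5, also a description.

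**Figure D1:**
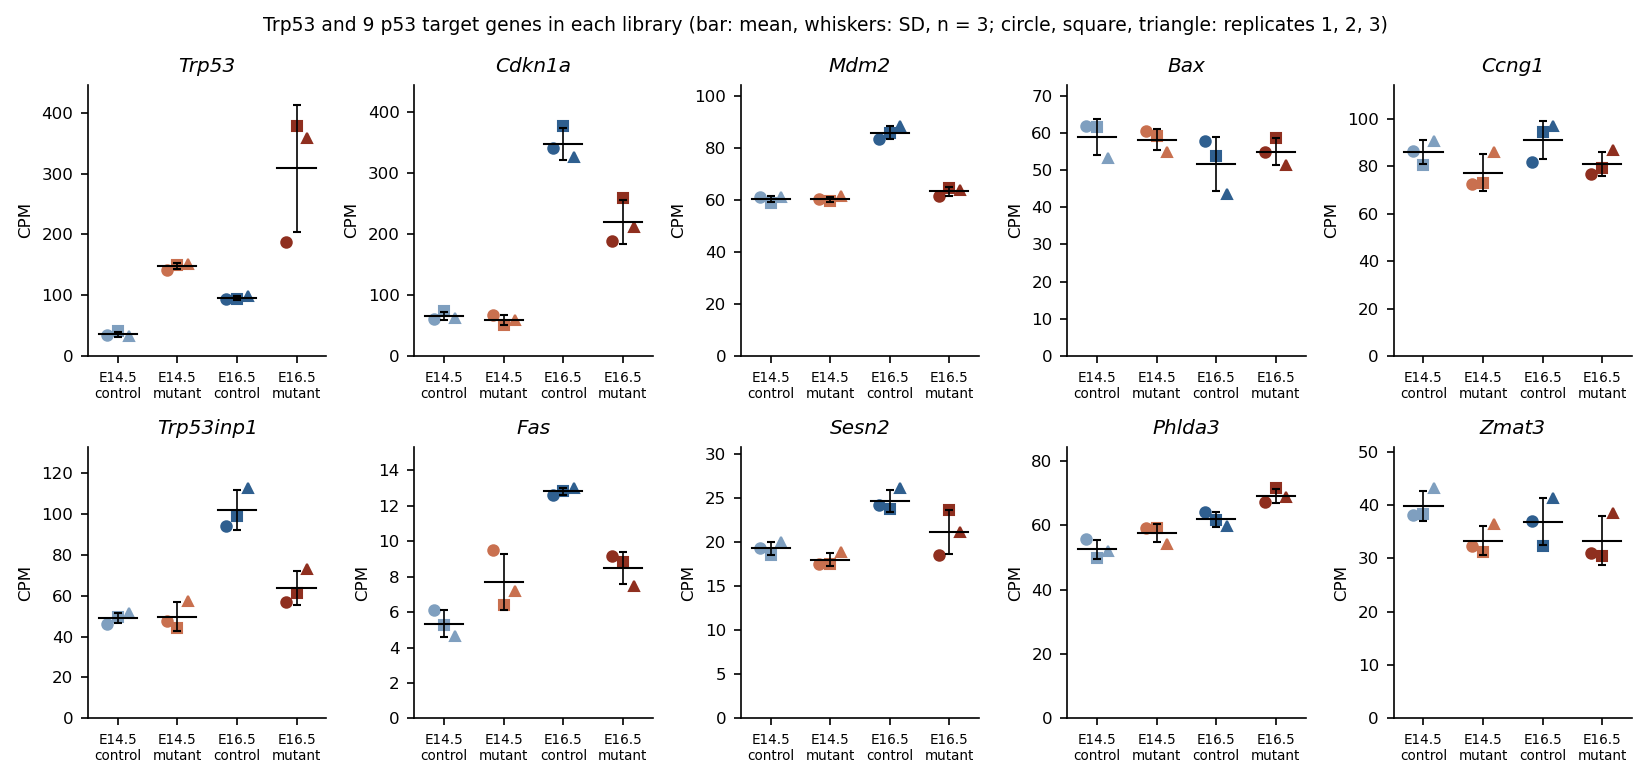
Level in CPM (TMM-scaled, linear axes from 0) of Trp53 and 9 p53 targets in each of the 12 libraries, with 1 panel per gene, bars at group means and whiskers of 1 SD (n = 3). Trp53 separates mutants from controls at both stages, whereas Cdkn1a, Mdm2, Trp53inp1 and Fas are lower in E16.5 mutants than in E16.5 controls.

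In the main fit, which left the replicate number out, none of the 9 targets passed the test in E14.5 mutants, in which Trp53 RNA was higher. The edgeR quasi-likelihood test called 0 of 9 at an adjusted p under 0.05, where 7.52% of all 16650 genes tested were called. At an unadjusted p under 0.05 there were 2, Fas and Zmat3, with opposite signs, and the share of all genes at that level was not counted. DESeq2, which called 12.7% of all genes, called the same 2, and limma-voom, which called 6.98%, called 0. With the replicate number as a block, edgeR called 3, Fas higher and Ccng1 and Zmat3 lower, beside 18.9% of all genes. The median log2 fold change of the 9 was -0.02, beside 0.01 over all genes tested. Summed over the 9 targets, the level was 435, 436 and 439 CPM in controls and 426, 401 and 436 CPM in mutants.

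Mdm2, the ubiquitin ligase that destroys p53 and is itself a classic p53 target, had nearly the same mean in both groups (60.37 and 60.34 CPM). It stood at 61.0, 58.9 and 61.1 CPM in E14.5 controls and at 60.3, 59.4 and 61.3 CPM in mutants. The groups overlap fully, and the 95% interval of its log2 fold change ran from -0.12 to 0.12. Ccng1, cyclin G1, another feedback target that acts on Mdm2 through a phosphatase, stood at 86.4, 80.8 and 90.8 CPM in controls and 72.4, 73.0 and 86.2 CPM in mutants. Its groups overlap (log2 fold change -0.16, interval -0.33 to 0.02, edgeR adjusted p = 0.264).

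Cdkn1a, which encodes the cyclin-dependent kinase inhibitor p21 and has the exact decamer matches shown above, stood at 60.05, 73.3 and 62.9 CPM in E14.5 controls and 67.0, 50.9 and 59.1 CPM in mutants. The groups overlap, with a log2 fold change of -0.15 (interval -0.38 to 0.08, edgeR adjusted p = 0.428). The upper bound of 0.08 stands beside the 2.05 of Trp53 itself in the same libraries.

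Among the targets tied to cell death, Bax, the pore-forming protein of the mitochondrial outer membrane, had a log2 fold change of -0.02 (interval -0.18 to 0.14). Trp53inp1, a nuclear stress protein that promotes p53-driven death, had 0.02 (interval -0.18 to 0.23). Fas, the death receptor, was at 6.13, 5.27 and 4.65 CPM in controls and 9.48, 6.41 and 7.19 CPM in mutants. All 3 mutants were above all 3 controls, narrowly for mutant replicate 2. The log2 fold change of Fas was 0.52 (SE 0.16, interval 0.16 to 0.89) and missed the threshold in edgeR (adjusted p = 0.0822), but passed in DESeq2 (0.0201), and the authors' deposited table lists 0.0195. Its upper bound, 1.85-fold, was the highest of the 9 targets.

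Among the targets that act on growth and RNA, Sesn2, a sestrin that restrains mTORC1, had a log2 fold change of -0.10 (interval -0.26 to 0.07) at E14.5. Phlda3, a competitor of Akt for membrane lipid, had 0.13 (interval -0.02 to 0.28). Zmat3, a zinc finger RNA-binding protein that regulates splicing, was at 38.1, 38.3 and 43.2 CPM in controls and 32.3, 31.2 and 36.4 CPM in mutants. All 3 mutants were below all 3 controls. Its log2 fold change was -0.26 (SE 0.08, interval -0.44 to -0.08), with an edgeR adjusted p of 0.0804 and a DESeq2 adjusted p of 0.0314. Without E14.5 mutant replicate 3, 2 targets were called in edgeR, both lower: Zmat3 (adjusted p = 0.0302) and Ccng1 (0.0437). That fit called 8.36% of all genes.

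At E16.5, where Trp53 RNA was again higher, 4 of the 9 targets were lower in mutants and 0 were higher in the main fit. That fit left the replicate number out. In it, 15.7% of all 17169 genes tested were called lower, 12.2% higher and 27.9% either way. With the replicate number as a block, 5 of the 9 were called, the same 4 and Phlda3, which was higher. The block called 39.3% of all genes. Cdkn1a, Mdm2, Trp53inp1 and Fas each fell to between 0.63 and 0.74 times the control level, and in each the mutants and controls did not overlap. The share of all genes whose groups do not overlap was not counted at either stage, so such separation is a description only. The median log2 fold change of the 9 was -0.20, beside 0.01 over all genes tested. The sum over the 9 targets was 796, 841 and 809 CPM in controls and 565, 657 and 623.5 CPM in mutants.

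Cdkn1a stood at 340.3, 377 and 327 CPM in E16.5 controls and 189, 258.5 and 212 CPM in mutants. It fell by 0.64 on the log2 scale (SE 0.11, interval -0.90 to -0.39, edgeR adjusted p = 0.00371). Every E16.5 library, mutant or control, was above every E14.5 library. Mdm2 stood at 83.4, 85.9 and 88.5 CPM in controls and 61.4, 64.6 and 64.0 CPM in mutants. Its fall of 0.42 (SE 0.06, interval -0.55 to -0.28, edgeR adjusted p = 0.00106) left the E16.5 mutants close to the level of the E14.5 groups.

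Trp53inp1 stood at 94.0, 99.2 and 113 CPM in controls and 57.0, 61.1 and 73.2 CPM in mutants. It fell by 0.65 (SE 0.10, interval -0.89 to -0.42, edgeR adjusted p = 0.00217). Fas stood at 12.6, 12.8 and 13 CPM in controls and 9.19, 8.84 and 7.45 CPM in mutants, a fall of 0.57 (SE 0.11, interval -0.82 to -0.32, edgeR adjusted p = 0.00585). At E14.5 the same gene had been on the higher side in mutants. The calls of Cdkn1a, Mdm2 and Trp53inp1 held in 16 of 16 alternatives. That of Fas held in 15 and was lost with replicates 1 and 2 alone (adjusted p = 0.0569).

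The other 5 targets did not pass the test at E16.5 in the main fit. Phlda3 was at 64.3, 61.8 and 59.7 CPM in controls and 67.2, 71.6 and 68.8 CPM in mutants. Its mutants were all above its controls by a small margin, with a log2 fold change of 0.18 (SE 0.06, interval 0.04 to 0.32) and an edgeR adjusted p of 0.0571. With the replicate number as a block the adjusted p was 0.0197, in DESeq2 0.0354, and 0.0458 in the authors' deposited table. Sesn2 had mutants below controls without overlap (log2 fold change -0.20, interval -0.42 to 0.01, edgeR adjusted p = 0.146), and passed only without mutant replicate 2 (adjusted p = 0.0492). Bax (0.11, interval -0.14 to 0.36), Ccng1 (-0.15, interval -0.33 to 0.04) and Zmat3 (-0.12, interval -0.39 to 0.15) had overlapping groups and log2 fold changes near 0.

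**Figure D2:**
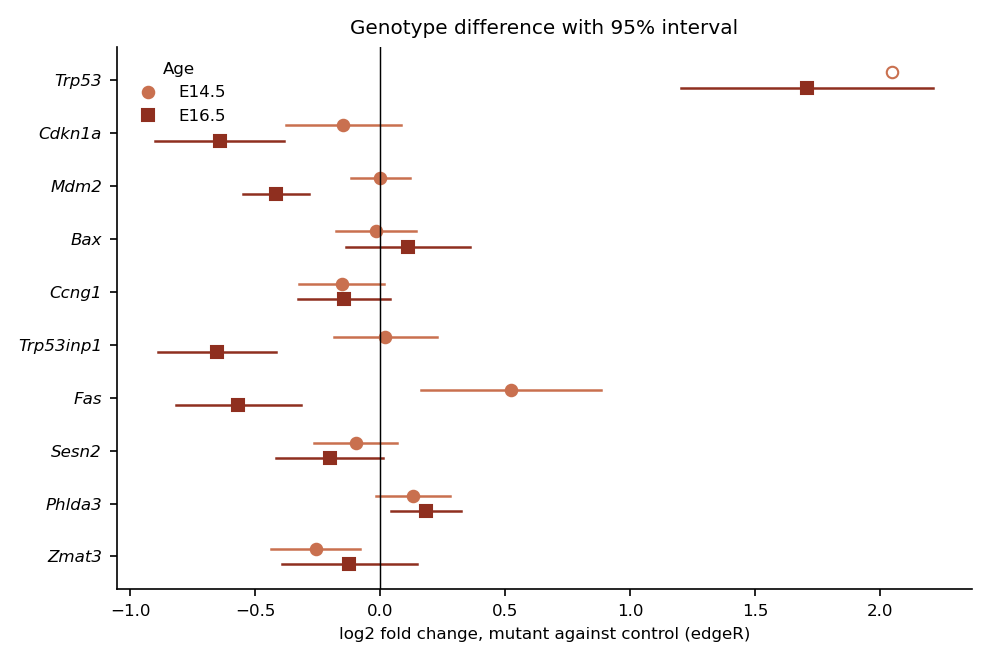
Log2 fold change, mutant against control, of Trp53 and the 9 targets at E14.5 and E16.5 from edgeR, with 95% intervals as bars (none for Trp53 at E14.5, which was selected on that value). Trp53 lies at 2.05 and 1.71, and the 9 targets lie between -0.65 and 0.52.

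The mutant effect on 3 targets differed between the stages by a direct test. The difference of the effects, E16.5 minus E14.5, was taken from 1 fit of all 12 samples. It was lower for Mdm2 (-0.44 on the log2 scale, SE 0.07, edgeR adjusted p = 0.00066), Trp53inp1 (-0.70, SE 0.16, adjusted p = 0.0071) and Fas (-1.12, SE 0.21, adjusted p = 0.00216). Over all genes, 12.4% of 17550 were called lower in this comparison, 9.97% higher and 22.3% either way. Cdkn1a had -0.51 with an adjusted p of 0.0526 and was not called without the replicate block, and with it Cdkn1a was the 1 target added (-0.53, SE 0.16, adjusted p = 0.0279). The block called 34.5% of all genes in this comparison. The other 5 targets had differences between -0.13 and 0.11.

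With age, the targets rose more often than they fell. In controls, 6 of 9 were higher at E16.5 than at E14.5 and 0 were lower, beside 34.3% of all genes called higher and 66.4% either way. Cdkn1a rose 5.32-fold (log2 2.41, SE 0.13, edgeR adjusted p = 3.37e-09), Fas 2.40-fold, Trp53inp1 2.08-fold and Mdm2 1.42-fold. Sesn2 rose 1.28-fold and Phlda3 1.177-fold. In mutants 4 of 9 were higher and 0 lower, beside 27.2% of all genes called higher and 51.6% either way. These were Cdkn1a (3.73-fold), Trp53inp1 (1.28-fold), Phlda3 (1.202-fold) and Sesn2 (1.17-fold). Mdm2 changed 1.05-fold (interval of the log2 change -0.04 to 0.17) and Fas 1.10-fold (-0.17 to 0.46) in mutants, and neither was called. The 2 age comparisons and the 2 genotype comparisons use the same 12 libraries.

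Levels of cell type markers also differed between the groups. In bulk tissue, fewer cells of a type and less RNA per cell cannot be told apart. The summed level of 6 mesenchyme markers was 1284 to 1420.0 CPM in E14.5 controls and 2143 to 2494 in mutants, and 884 to 1028 in E16.5 controls and 1752 to 2652 in mutants. Prrx1 alone made most of the rise in this sum, with means of 233 and 1172 CPM in E14.5 controls and mutants, and 441 and 1648 CPM at E16.5. The markers did not move together: Prrx1 and Osr2 were called higher at E14.5, and Prrx1, Shox2 and Msx1 at E16.5. Msx1 at E14.5, Osr2 at E16.5 and Twist1 and Pdgfra at both stages were not called. Pdgfra was lower in all 3 E14.5 mutants (491 ± 47.2 CPM in controls and 414 ± 20.9 in mutants). All 3 osteoblast markers (Runx2, Sp7 and Ibsp) were lower at both stages, and their sum went from 2095 to 2559 CPM down to 655 to 690.5 CPM at E14.5, and from 380.4 to 510 down to 46.7 to 52.7 CPM at E16.5. The sum of 5 epithelial markers was 772 to 1319 CPM in E14.5 controls and 1349 to 1392 in mutants, and 9956 to 10420 in E16.5 controls and 6320 to 10820 in mutants. It thus rose with age in controls, mostly through Krt5 (means of 334 and 4119 CPM at E14.5 and E16.5) and Krt15 (227 and 3891 CPM). Between genotypes 1 of 5 epithelial markers (Epcam, higher) was called at E14.5 and 0 at E16.5. All 4 endothelial markers (Pecam1, Cdh5, Kdr and Tie1) were called lower at E14.5 and higher at E16.5. Their sum was 426 to 465 CPM in controls and 343 to 375 in mutants at E14.5, and 175 to 190 and 243 to 318 CPM at E16.5. The sum of 5 macrophage markers was 60.65 to 66.4 CPM in controls and 44.0 to 57.3 in mutants at E14.5, and 89.4 to 94.8 and 81.7 to 87.1 CPM at E16.5, where 0 of 5 were called (1 of 5 at E14.5, Csf1r, lower). Of all the marker lists, only the erythroid list had a marker at 0, Hba-a1, in every library. The part of tissue makeup in the changes of Trp53 and its targets was not tested.

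The E16.5 mutant libraries 1 and 3 held more neuronal RNA than the other E16.5 libraries. The sum of 5 neuronal markers was 190 and 104 CPM there, against 26.6 CPM in mutant library 2 and 18.1 to 22.1 CPM in the controls. At E14.5 the sum was 48.4 to 85.3 CPM in controls and 47.6 to 56.2 CPM in mutants. With mutant library 2 as the only mutant, taken to vary as the controls do, the 4 targets still called at E16.5 had log2 fold changes of -0.42 (Cdkn1a, edgeR adjusted p = 0.0338), -0.40 (Mdm2, 0.0236), -0.73 (Trp53inp1, 0.00231) and -0.53 (Fas, 0.0267), and Trp53 had 1.99 (1.4e-06). Xist, the RNA that silences an X chromosome in female cells, was 709 to 861 CPM in E14.5 controls, 441 to 521 in E14.5 mutants, 341 to 481 in E16.5 controls and 888 to 914 in E16.5 mutants. Its ranges do not overlap between genotypes at either stage, and its part in the results was not tested. The label check held: Fgf8 went from 0.316 ± 0.0938 to 10.8 ± 0.275 CPM at E14.5 and from 0.383 ± 0.110 to 16.1 ± 1.93 CPM at E16.5 (SD, n = 3). Totals were 76417891 to 125996587 counts per library.

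Transcripts of the proteins that bind or modify p53 did not pass the test. Of 18 listed partners and modifiers, 17 were tested, and edgeR called 0 at either stage, beside 7.52% of all genes at E14.5 and 27.9% at E16.5. At an unadjusted p under 0.05 there were 3 at E14.5 (Cul9, Ppp1r13b and Rpl11) and 0 at E16.5, limma-voom called 0 at both, and DESeq2 called 1 at E14.5 (Rpl11) and 0 at E16.5. Over all genes, limma-voom called 6.98% at E14.5 and 27.4% at E16.5, and DESeq2 12.7% and 33%. With the replicate number as a block, 3 passed at E16.5 by small changes (39.3% of all genes were called in that fit), named here after their values were seen: Crebbp, an acetylase of p53 (log2 0.15, adjusted p = 0.0236), Rpl11 (0.13, 0.0437) and Rchy1, a ubiquitin ligase for p53 (-0.13, 0.0474). Mdm4, the partner of Mdm2 that blocks p53's activating domain, had log2 fold changes of 0.06 (interval -0.05 to 0.17) at E14.5 and -0.0035 (interval -0.15 to 0.14) at E16.5. Usp7, the deubiquitinase that acts on both p53 and Mdm2, had 0.00 and -0.01. Rpl11, a ribosomal protein that binds Mdm2 when ribosome assembly fails, stood at 116.5, 109.7 and 102 CPM in E14.5 controls and 141, 151 and 115.5 CPM in mutants, with overlapping groups and an adjusted p of 0.0775. Cdkn2a, whose ARF product inhibits Mdm2, was below 1 CPM in all 12 libraries.

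Among 12 listed damage sensors and kinases, which act upstream of p53, 1 was higher and 0 lower at E14.5, and 2 were higher and 2 lower at E16.5. These counts stand beside 7.52% of all genes called at E14.5 and 27.9% at E16.5. Atr, the kinase that answers stalled replication, was higher at E14.5 (log2 fold change 0.24, edgeR adjusted p = 0.0484) and lower at E16.5 (-0.24, 0.0355). Both Atr calls were narrow: that at E14.5 was lost when any library but control replicate 2 was left out (adjusted p 0.0868 to 0.168), and that at E16.5 when any but control replicate 1 was (0.069 to 0.106). Chek2, the checkpoint kinase that follows double-strand breaks, fell at E16.5 from 20.75 ± 1.21 to 14.9 ± 1.43 CPM (log2 -0.46, adjusted p = 0.00962). Chek1, its counterpart in replication stress, rose there by 0.32 (0.0149), a call lost without control replicate 1 or 2 (0.0685 and 0.076). Topbp1, an activator of Atr, rose by 0.25 (0.0222), a call lost without control replicate 1 or 2 or mutant replicate 2 (0.0703, 0.124 and 0.0568).

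Neither relative of p53 was called higher in mutants. Trp63, which maintains basal epithelium, was at 75.4 ± 20.6 and 99.0 ± 11.1 CPM in E14.5 controls and mutants, and at 308 ± 27.6 and 268 ± 63.4 CPM at E16.5, and was not called at either stage (edgeR adjusted p = 0.194 and 0.436). Trp73 was not called at E14.5 and fell at E16.5 from 81.0 ± 3.61 to 57.4 ± 12.7 CPM (log2 -0.48, adjusted p = 0.0333). The Trp73 call was lost without any 1 of the 3 controls (0.0738, 0.113 and 0.0868) or mutant replicate 3 (0.0559). Wrap53 is transcribed from the opposite strand next to Trp53, and in GRCm38.p6 its upstream start lies 98 bases from the start of Trp53, the genes running away from each other. Its level was 19.3, 20.2 and 19.1 CPM in E14.5 controls and 20.1, 19.99 and 18.2 CPM in mutants, with a log2 fold change of -0.01 (interval -0.18 to 0.16) in the libraries where Trp53 was 4.13-fold higher. At E16.5 Wrap53 was lower (-0.32, adjusted p = 0.0232), a call lost without control replicate 1 or 2 or mutant replicate 1 or 3 (0.0964, 0.0621, 0.0597 and 0.0792). The decamer printed for Trp53 lies at the same bases in the window of an upstream start of Wrap53.

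A wider set of 54 known p53 targets, in 5 lists by role, split in both directions. At E14.5, 52 passed the filter on low counts, of which 6 were higher and 2 lower, beside 2.95% and 4.57% of all genes. Their median log2 fold change was 0.05. At E16.5, 53 passed, of which 9 were higher and 10 lower, beside 12.2% and 15.7% of all genes, with a median of -0.04. These counts moved with single libraries, as did the share of all genes called, which was 7.52% at E14.5 and 27.9% at E16.5 with all libraries. At E14.5 they fell from 8 to 3 without control replicate 1, 3 without control replicate 3 and 2 without mutant replicate 1 (3.96, 3.74 and 3.12% of all genes). At E16.5 they fell from 19 to 9, 7 and 11 without control replicates 1, 2 and 3 (17.7, 16.0 and 20.8% of all genes), and to 12 and 8 without mutant replicates 1 and 3 (20.3 and 20.5%). With mutant library 2 as the only E16.5 mutant, 6 were called (14.1% of all genes).

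At E16.5, 2 of 9 listed arrest targets were higher and 1 lower, and 5 were called with the replicate block. Over all genes, 7.52% were called at E14.5, 27.9% at E16.5 and 39.3% at E16.5 with the block. Called at E14.5, in opposite directions, were Sfn (14-3-3 sigma, an epithelial protein that holds cells before mitosis) and Rprm (reprimo, another brake on entry to mitosis). Sfn rose from 83.5 ± 12.8 to 120.0 ± 13.8 CPM (log2 0.52, edgeR adjusted p = 0.02), beside the higher epithelial marker sum of the mutants, and the call was lost without control replicate 1 or 3 or mutant replicate 1 (0.0531, 0.065 and 0.0805). Rprm stood at 11.5, 9.26 and 9.94 CPM in E14.5 controls and 8.37, 6.95 and 7.17 CPM in mutants (log2 -0.45, adjusted p = 0.0485). The E14.5 call of Rprm was lost when any library but control replicate 2 was left out (0.0608 to 0.149). At E16.5 Rprm was at 0.669, 0.642 and 0.324 CPM in controls and 2.93, 1.47 and 1.68 CPM in mutants, the opposite direction (log2 1.93, adjusted p = 0.007), a call that held without any 1 library. Gadd45a, a stress protein of the G2 checkpoint, rose at E16.5 (log2 0.69, adjusted p = 0.0418), a call lost when any library but mutant replicate 2 was left out (0.0567 to 0.121). Trp53cor1, a long noncoding RNA made next to Cdkn1a (lincRNA-p21), lies outside the naming rule and was chosen after its values were seen. It stood at 3.70, 3.86 and 4.04 CPM in E16.5 controls and 1.05, 1.32 and 0.869 CPM in mutants (log2 -1.82, SE 0.21, adjusted p = 0.000341). As with Cdkn1a, all E16.5 mutants were below all E16.5 controls and above all E14.5 libraries.

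Of 13 listed cell death targets, 2 rose and 1 fell at E14.5, and 2 rose and 2 fell at E16.5, beside 7.52% and 27.9% of all genes called at the 2 stages. Pmaip1 (Noxa, which blocks survival proteins of the BCL2 family) rose at E14.5 from 4.62 ± 0.333 to 6.74 ± 0.830 CPM (log2 0.54, edgeR adjusted p = 0.0305). The call of Pmaip1 was lost without control replicate 1 or 3 or mutant replicate 1 or 3 (0.0929, 0.088, 0.128 and 0.0725). Steap3, an iron-reducing membrane protein also studied in p53-driven death, had the largest fall at E14.5 of the 52 wider targets that passed the filter on low counts. It stood at 17.6, 16.1 and 19.3 CPM in controls and 8.04, 7.61 and 7.82 CPM in mutants (log2 -1.17, SE 0.10, adjusted p = 5.29e-05), a call that held in 15 of 15 alternatives. At E16.5 Steap3 was near 3 CPM in both groups and was not called. Pidd1, the scaffold of the complex that activates caspase-2, fell at E16.5 from 25.1 ± 2.72 to 15.3 ± 1.26 CPM (log2 -0.69, adjusted p = 0.00186), and the call held in 16 of 16 alternatives. Tnfrsf10b, a death receptor for TRAIL, rose there from 11.4 ± 1.89 to 16.4 ± 2.57 CPM (log2 0.55, adjusted p = 0.0248), a call lost without control replicate 1 or 2 or mutant replicate 3 (0.078, 0.0948 and 0.0757).

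Of 9 repair and nucleotide targets, 1 was called at E14.5 and 3 at E16.5, beside 7.52% and 27.9% of all genes. Pcna, the sliding clamp of DNA replication, was higher at both stages (log2 0.31 and 0.25, edgeR adjusted p = 0.0166 and 0.0228). The E14.5 call of Pcna was lost without control replicate 1 or mutant replicate 1 (0.0699 and 0.0867), and the E16.5 call without control replicate 2 or 3 or mutant replicate 3 (0.11, 0.0796 and 0.0574). Rrm2b, the p53-induced subunit of ribonucleotide reductase, was lower at E16.5 (-0.32, adjusted p = 0.0441), a call lost when any library but mutant replicate 3 was left out (0.0858 to 0.127). Polk, a translesion polymerase, was also lower (-0.31, 0.0214), a call lost without control replicate 2 or 3 or mutant replicate 3 (0.0828, 0.0526 and 0.0726).

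Of 10 targets that act on metabolism and growth, 0 of 8 tested were called at E14.5 by edgeR, DESeq2 or limma-voom, and Ddit4 alone had an unadjusted p under 0.05 (0.0349). Over all genes, edgeR called 7.52% at E14.5 and 27.9% at E16.5, and at E14.5 DESeq2 called 12.7% and limma-voom 6.98%. At E16.5, 2 of 9 were called, both lower: Ddit4, an mTORC1 inhibitor (log2 -0.26, adjusted p = 0.0281), and Pank1, a kinase of coenzyme A synthesis (-0.23, 0.0469). The Ddit4 call was lost without control replicate 1 or 2 or mutant replicate 1 or 3 (0.117, 0.0825, 0.0614 and 0.0883). The Pank1 call was lost without any library but mutant replicate 2 (0.0891 to 0.141).

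Of 13 other targets, 2 were higher and 0 lower at E14.5, and 4 were higher and 3 lower at E16.5. Over all genes, 2.95% were higher and 4.57% lower at E14.5, and 12.2% and 15.7% at E16.5. Zfp365, a zinc finger protein tied to genome stability, stood at 11.01, 10.8 and 10.96 CPM in E14.5 controls and 16.1, 16.8 and 17.8 CPM in mutants (log2 0.63, SE 0.08, edgeR adjusted p = 0.000993). At E16.5 it stood at 10.98, 13.6 and 13.6 CPM in controls and 22.5, 20.2 and 24.4 CPM in mutants (log2 0.84, SE 0.12, adjusted p = 0.00103). Zfp365 was called higher at both stages under every alternative, and mutants and controls did not overlap. Ak1, adenylate kinase 1, had lower mutants at both stages. It was at 42.6, 46.9 and 47.8 CPM in E16.5 controls and 24.9, 24.9 and 24.2 CPM in mutants (log2 -0.87, SE 0.07, adjusted p = 5.13e-05, held in 16 of 16 alternatives), and missed the threshold at E14.5 (-0.36, adjusted p = 0.0549). Psrc1, a spindle protein, rose at E16.5 from 22.6 ± 2.86 to 32.1 ± 2.72 CPM (log2 0.53, adjusted p = 0.0105). Ephx1, microsomal epoxide hydrolase, fell at E16.5 (-0.44, adjusted p = 0.0241), a call lost without control replicate 1 or 2 or mutant replicate 1 or 3 (0.086, 0.0849, 0.0656 and 0.0733).

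**Figure D3:**
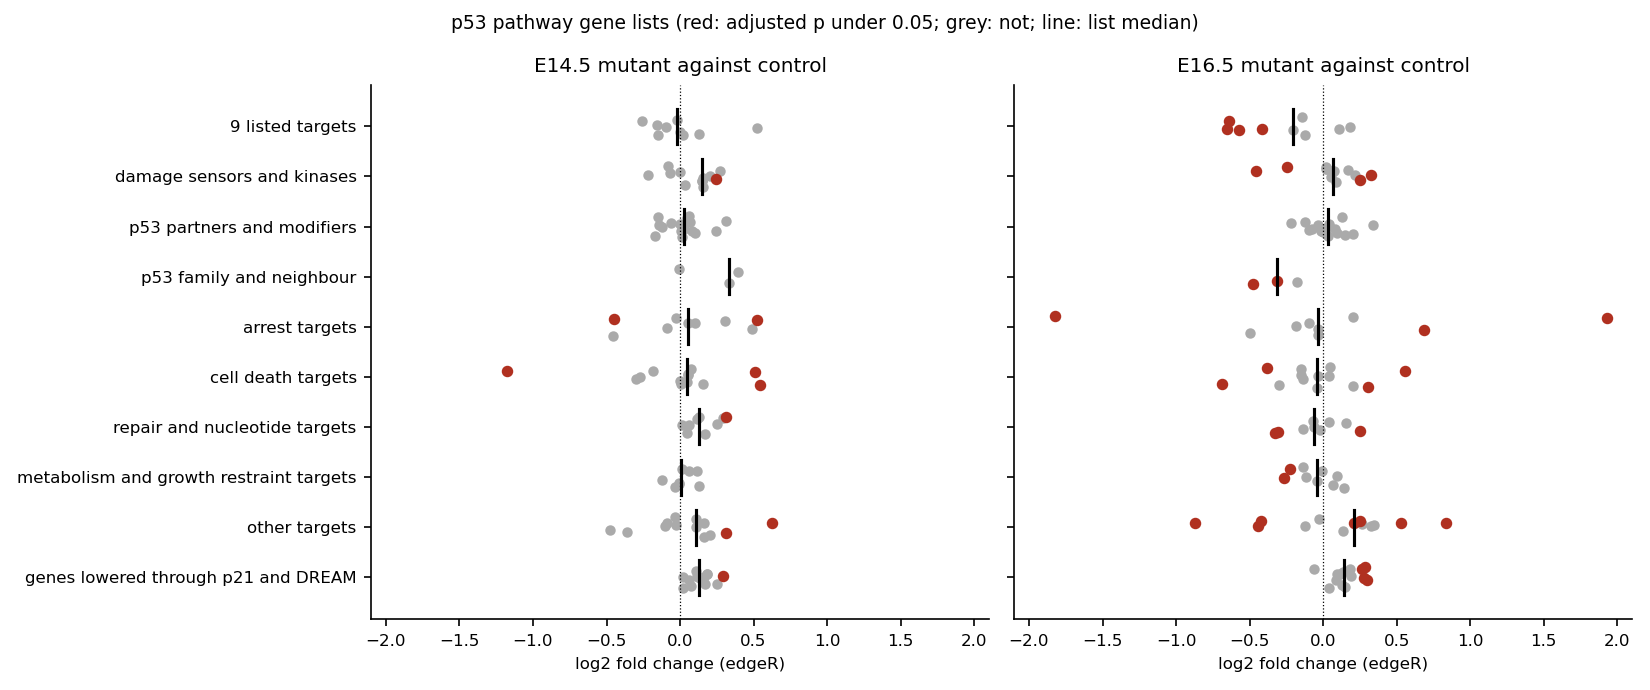
Log2 fold change, mutant against control, of each tested gene in 10 p53 pathway lists at E14.5 (left) and E16.5 (right), with called genes in red, others in grey and a line at each list's median. The 9 listed targets have 0 red points at E14.5 and 4 at E16.5, all left of 0, while other lists hold red points on both sides.

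p21 acts through the DREAM complex to shut off cell cycle genes, so 14 such genes were also read. Their median log2 fold change was 0.13 at E14.5 and 0.14 at E16.5, beside 0.01 over all genes at each stage, with values above 0 in 14 of 14 and in 13 of 14. Most of these did not pass the test, and Prc1, a protein of the central spindle, had -0.07 at E16.5. At E14.5, 1 was called higher (Bub1, a spindle checkpoint kinase, 0.29, edgeR adjusted p = 0.0154) and 0 lower, beside 2.95% and 4.57% of all genes. At E16.5, 4 were called higher and 0 lower, beside 12.2% and 15.7% of all genes. Cdkn1a was not called at E14.5 and was lower in E16.5 mutants, and its part in these values was not tested. At that stage Ccna2, cyclin A2, went from 108 ± 6.23 to 129 ± 4.75 CPM (log2 0.28, edgeR adjusted p = 0.0189), Birc5 (survivin) rose by 0.30 (0.0216) and Aurkb (aurora kinase B) by 0.28 (0.0119). The fourth called at E16.5 was Foxm1, a transcription factor of mitotic genes (0.26, 0.0151), named because it completes the count. The call of Bub1 was lost without control replicate 1 or 3 or mutant replicate 1 (0.0561, 0.0543 and 0.0798), that of Ccna2 without control replicate 1 or 2 or mutant replicate 3 (0.0731, 0.102 and 0.0607), that of Birc5 without control replicate 2 or 3 or mutant replicate 1 (0.0812, 0.0659 and 0.0694), and that of Aurkb without control replicate 2 (0.058).

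None of the 10 genes whose levels ran most like Trp53 over the 12 libraries was among the 9 targets. A list of 10 out of 12922 ranked genes is too short for this absence to say much about the targets. Likeness was Pearson's r of log2 CPM over 12 samples, ranked over the 12922 genes whose log2 CPM averaged 1 or more, and it is a description: the samples fall into 4 groups and share the contrast that selected Trp53. The 10 closest named genes were Sox5 (0.976), Pam (0.964), Cdk6 (0.963), Prrx1 (0.955), Dio2 (0.95), C1ql3 (0.946), Bri3 (0.944), Cyth3 (0.937), Ptpru (0.937) and Wnt5a (0.931). Phlda3 came closest among the 9 targets, with r of 0.819 and rank 71 of 12922, near the top of the ranking. Fas (0.398), Cdkn1a (0.393), Trp53inp1 (0.183), Sesn2 (0.14) and Mdm2 (0.00471) followed, while Bax (-0.171), Ccng1 (-0.319) and Zmat3 (-0.584) ran the other way.

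Sox5, an HMG-box transcription factor of cartilage, had group means of 3.49, 22.6, 11.8 and 39.9 CPM in E14.5 controls, E14.5 mutants, E16.5 controls and E16.5 mutants. Prrx1, the mesenchyme factor named above, had 233, 1172, 441 and 1648 CPM in the same order. Wnt5a, a secreted Wnt ligand, had 46.6, 185, 99.7 and 204.5 CPM, and Cdk6, a G1 cyclin-dependent kinase, 1.55, 12.2, 9.94 and 24.9 CPM. All 4 shared the order of groups seen for Trp53. They were picked for likeness to it in these same libraries, so this order and the values below are descriptions and no separate evidence. In E16.5 mutant replicate 1, where Trp53 was lowest of its group, Prrx1 (1102 against 1880 and 1961 CPM) and Wnt5a (131 against 231 and 251 CPM) were also lowest. So were Sox5 (31.4 against 42.7 and 45.6 CPM) and Cdk6 (16.7 against 34.4 and 23.5 CPM). Of the 10, Pam (469 against 427 and 485 CPM), Dio2 (40.1 against 33.1 and 44.3 CPM) and Cyth3 (154 against 143.5 and 152 CPM) were not lowest there.

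**Figure D4:**
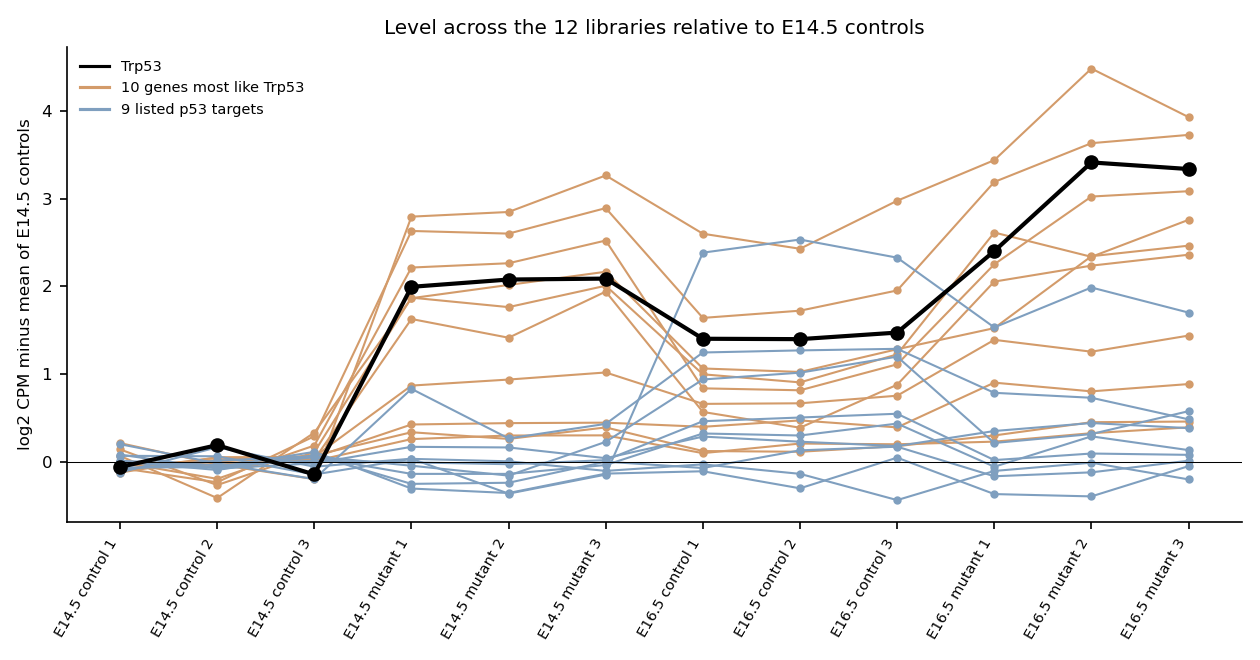
Log2 CPM of Trp53 (black), the 10 genes most like it (orange) and the 9 listed targets (blue) in each of the 12 libraries, as the difference from the mean of the E14.5 controls. The orange lines step up in both mutant groups as Trp53 does, having been picked for likeness to it in these libraries. Most blue lines stay near 0 in E14.5 mutants, but that of Fas lies above 0. The mean ratio of mutant to control at E14.5 was 1.44 for Fas, beside 1.22 for Bri3, 1.26 for Ptpru and 1.36 for Cyth3 among the orange lines.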

How the data were processed

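RNA from 12 anterior palate samples was sequenced. Per the submitters' processing notes, reads were processed with HISAT2, featureCounts and DESeq2 on build mm9, and versions, annotation and strand setting are not given in the sources used here. The authors deposited raw counts per gene for each sample, and tables of their own comparisons holding a log2 fold change and an adjusted p-value, quoted only as theirs. Another 24 columns with values per sample, in other deposited tables, were left out. Of 24389 gene names, 23585 matched reference symbols. The names of 27 genes appear as dates and are never named. The values of 1 listed gene are not reported here.

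The tests used edgeR 4.0.16 in R 4.3.3 (TMM factors, filterByExpr, quasi-likelihood test), on the 6 samples of each age for genotype and on all 12 with 4 group means for age and for the difference of effects. Calls were made where the Benjamini-Hochberg adjusted p over all genes tested was under 0.05. log2 CPM used a prior count of 2. No p53 target or Trp53 shares exonic bases with another counted gene in GENCODE M21. The fit was tested on simulated data. Depth was 76417891 to 125996587 counts per library.

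The members, gene lists and tests were chosen with earlier results of these data known. Named were the 10 members, Fgf8, Shox2, Wrap53, Trp63, Trp73, Mdm4, Cdkn2a, up to 4 called genes per list with a mean log2 CPM of at least 1 (by size of change, or the 2 most abundant where 0 were called), and the 10 genes most like Trp53. Alternatives were other scaling (DESeq2 size factors, upper quartile), DESeq2 1.42.0, limma-voom (limma 3.58.1), other filters on low counts (no filter, or at least 5 CPM in 3 samples), a replicate block, replicates 1 and 2 alone, the fit of all 12 samples, each sample left out, and the E16.5 mutant libraries 1 and 3 left out. Replicate numbers are shared between groups in the labels. The correlation of deviations of same-numbered control and mutant samples over all genes was 0.105, 0.161 and 0.222 at E16.5, so the numbers were taken to pair those samples, and 0.0193, 0.0445 and 0.16 at E14.5, where they were not. Over the 13463 genes with a mean log2 CPM above 1 it was 0.196, 0.241 and 0.695 at E16.5 and 0.0783, 0.127 and 0.559 at E14.5. In these genes, E14.5 pairs of a replicate 3 with a replicate 1 or 2 had -0.321 to -0.197. Replicate 3 thus stood apart at E14.5 too, which the fits without the block leave out.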

Additional observations from a re-analysis of the deposited data

Results flagged for a closer look

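For 19 of the pathway genes reported, the mutant effect differed between stages in a direct test, the edgeR quasi-likelihood test of the difference of genotype effects (log2 effect at E16.5 minus that at E14.5, over 12 samples, adjusted p under 0.05). Over all 17550 genes tested the share was 22.3%. Many of the 19 were named because a genotype comparison had called them, so their number is not a rate. Over the full lists, the test called 3 of 9 targets, 2 of 12 damage sensors and kinases, and 0 of 17 partners. It called 2 of 3 in the list of relatives and neighbour and 0 of 14 cell cycle genes. Of 53 wider targets, 4 were higher and 9 lower. Among the 9 targets the genes called were Mdm2 (-0.44, adjusted p = 0.00066), Trp53inp1 (-0.70, 0.0071) and Fas (-1.12, 0.00216). Among kinases they were Atr (-0.51, 0.00271) and Chek2 (-0.64, 0.00192), and among the relatives and the neighbour of Trp53 they were Trp73 (-0.83, 0.0331) and Wrap53 (-0.33, 0.0418).

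Among the wider targets reported, the difference was positive for Rprm (2.36, adjusted p = 0.000811), Steap3 (1.001, 0.000318) and Cdip1 (0.28, 0.00719). The difference was negative for 9: Trp53cor1 (-2.34, 0.00124), Perp (-0.91, 0.00935), Sfn (-0.73, 0.0354), Pidd1 (-0.76, 0.00209), Rrm2b (-0.41, 0.0402), Polk (-0.45, 0.00916), Pank1 (-0.38, 0.0199), Ak1 (-0.53, 0.0102) and Ephx1 (-0.57, 0.0397). Cdip1, Trp53cor1 and Perp lie outside the naming rule and were named after their values were seen. Groups of 3 samples are too small for a check of single outlying samples.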

How the results depend on the processing

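The counts of targets called at E16.5 (4), in the difference between stages (3), with age in controls (6) and with age in mutants (4) stayed within 1.5 times under every alternative run. With the replicate block they were 5, 4, 7 and 4, beside 39.3, 34.5, 72.6 and 60% of all genes called. The count of 0 at E14.5 became 2 in DESeq2 and 3 with the replicate block (Fas higher, Ccng1 and Zmat3 lower), where the share of all genes called went from 7.52% to 12.7% and 18.9%, and ranged from 0 to 2 with 1 sample left out. For the wider targets at E14.5, the count of 8 became 16 with the replicate block, 2 with replicates 1 and 2 alone, 5 in the fit of all 12 samples, and 2 to 8 with 1 sample left out. For the wider targets at E16.5, 19 became 6 with replicates 1 and 2 alone, 21 with the replicate block, and 6 to 21 with 1 or 2 samples left out. At E16.5, where the numbers were taken to pair the samples, the block changed 1 call among Trp53, the 9 targets and the other called genes named, that of Phlda3. With the block, 4 partners were called at E14.5 (Ep300, Crebbp, Ppp1r13b and Rpl11). The causes of these shifts were not tested, beyond the fewer samples in some of them. Signs turned only for values near 0 that were not called: Mdm2 at E14.5 (0.0069 with upper-quartile factors, 0.0010 in limma-voom, 0.0011 with the 5 CPM filter, -0.0223 to 0.0098 with 1 sample left out), Bax at E14.5 (-0.0857 to 0.0204 with 1 sample left out) and at E16.5 (-0.0030 without control replicate 3, to 0.2007), and Trp53inp1 at E14.5 (-0.063 with replicates 1 and 2 alone, -0.0964 to 0.0996 with 1 sample left out). Of the other gene values, 655 held, 133 lost a call and 11 gained one. The 3 samples per group, the unstated strand setting and the unstated pooling limit what these counts can show.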
